A study of Mus musculus with 16 samples.

Results

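Cathepsins and other lysosomal proteins were followed as 10 named genes, of 30389 genes counted in the series. They were 4 cysteine cathepsins (Ctsb, Ctsl, Ctss, Ctsz), the aspartic cathepsin Ctsd, the asparaginyl endopeptidase Lgmn, the protease inhibitor Cst3, progranulin (Grn) and the membrane glycoproteins Lamp1 and Lamp2. All 10 had rows in the count tables and entered through their symbols alone. The samples were cortex of 17-month-old mice, with 1 Drop-seq library listed per mouse, though a pair of tables shared nearly all barcodes, as given below. Drop-seq tags every transcript with the barcode of its cell and a molecular tag (UMI), so that copies made by amplification count only 1 time. THY-Tau22 mice were heterozygous for human 4-repeat tau with the G272V and P301S changes, under the neuronal Thy1.2 promoter, so that glia and vessels were measured around transgene-bearing neurons. Wild-type (WT) littermates of the same C57Bl6/J crosses were the controls, and by the labels there were 4 males of either genotype, 3 WT females and 5 females with the transgene.

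The lysosome is the acidic compartment in which cells degrade proteins, lipids and glycans taken up from outside or delivered by autophagy. Cathepsins are its main proteases. Most are made as inactive precursors, and legumain cuts several of them into their mature chains. Cystatin C, the product of Cst3, is secreted and binds cysteine cathepsins, while Lamp1 and Lamp2 line the lysosomal membrane and progranulin is a secreted protein that is processed to granulins in lysosomes. Phagocytes of the brain, microglia above all, are known for high levels of these transcripts.

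Replicate 3 of the WT males and replicate 4 of the THY-Tau22 males shared 2952 of 3000 barcodes, where any other pair of the 120 shared 3 to 12. Both were left out of every comparison, so that 14 libraries remained (3 in each group but the THY-Tau22 females, with 5). The 16 tables held 1041675 to 2237505 UMIs each. The 14 libraries had 24578 barcodes with 200 to 7000 detected genes, at a median of 429 to 736.5 UMIs per cell in a library. Cells were clustered and named from marker genes as microglia-like (6838 cells), astrocyte-like (4541), oligodendrocyte-like (4334), endothelial-like (3363), neuron-like (1215), oligodendrocyte precursor (OPC)-like (1117), mural-like (864), macrophage-like (425), fibroblast-like (147) or ependymal-like (127), and 1607 cells stayed unnamed. The unnamed cells made up 11.6% of cells in THY-Tau22 males and 4.54% to 6.42% in the other groups. Of those in THY-Tau22 males, 416 came from replicate 3, where they were 29.9% of cells, and without that library the share was 4.56%. Levels are UMI counts scaled to 1e+06 per library and class (CPM) of the summed cells of a class in a library with at least 10 such cells. In the 2 tables left out, 131 of 140 values of the 10 genes, over all cells and 6 classes, lay within the range of the 14 libraries.

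Before the values, the promoters are shown of those genes that carry the E-box CACGTG, the core of the motif known to be bound by TFEB, the transcription factor of lysosomal genes. RefSeq promoters (GRCm38.p6, the assembly also called mm10, named in the labels) were found for 9 of the 10 genes, and Ctsb had no entry. These 9 genes had 10 promoters listed. In the 250 bases before the start site, CACGTG, which reads the same on both strands, was found in 4 of the 10, each of another gene, and in 6.02% of all 32851 promoters listed. The longer TCACGTGA, which contains it, was found in Ctsd and in 0.785% of all promoters. The stretches around the matches are printed 5′ to 3′ on the gene's strand, with each CACGTG in capitals:
Lamp1: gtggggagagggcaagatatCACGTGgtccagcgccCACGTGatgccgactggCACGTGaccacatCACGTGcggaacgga
Ctsd: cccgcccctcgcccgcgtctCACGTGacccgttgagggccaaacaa
Lgmn: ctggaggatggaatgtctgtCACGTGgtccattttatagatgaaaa
Ctsl: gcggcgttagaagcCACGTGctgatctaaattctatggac
The Lamp1 stretch (chr8:13159080-13159160, plus strand) held 4 matches within its 81 bases, beginning at -61, -45, -28 and -15 from the start site. The Ctsd stretch lies on the minus strand (chr7:142387900-142387945), and a further match of Ctsd began at -245. The Lgmn stretch (chr12:102439116-102439161, minus strand) belongs to the second of the start sites listed for that gene. The Ctsl stretch (chr13:64370731-64370770, minus strand) begins at -250. Cst3, Ctss, Ctsz, Grn and Lamp2 had no CACGTG in this window. A match is a description of the letters and not of binding.

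Across cell classes, the cathepsins, Lgmn and Grn were highest in microglia-like and macrophage-like cells, Cst3 was also high in astrocyte-like cells, and Lamp1 was higher in oligodendrocyte-like than in microglia-like cells. These orders are of 1 gene across classes. Levels of different genes are not compared, since each transcript is read from its 3′ end only.

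**Figure D1:**
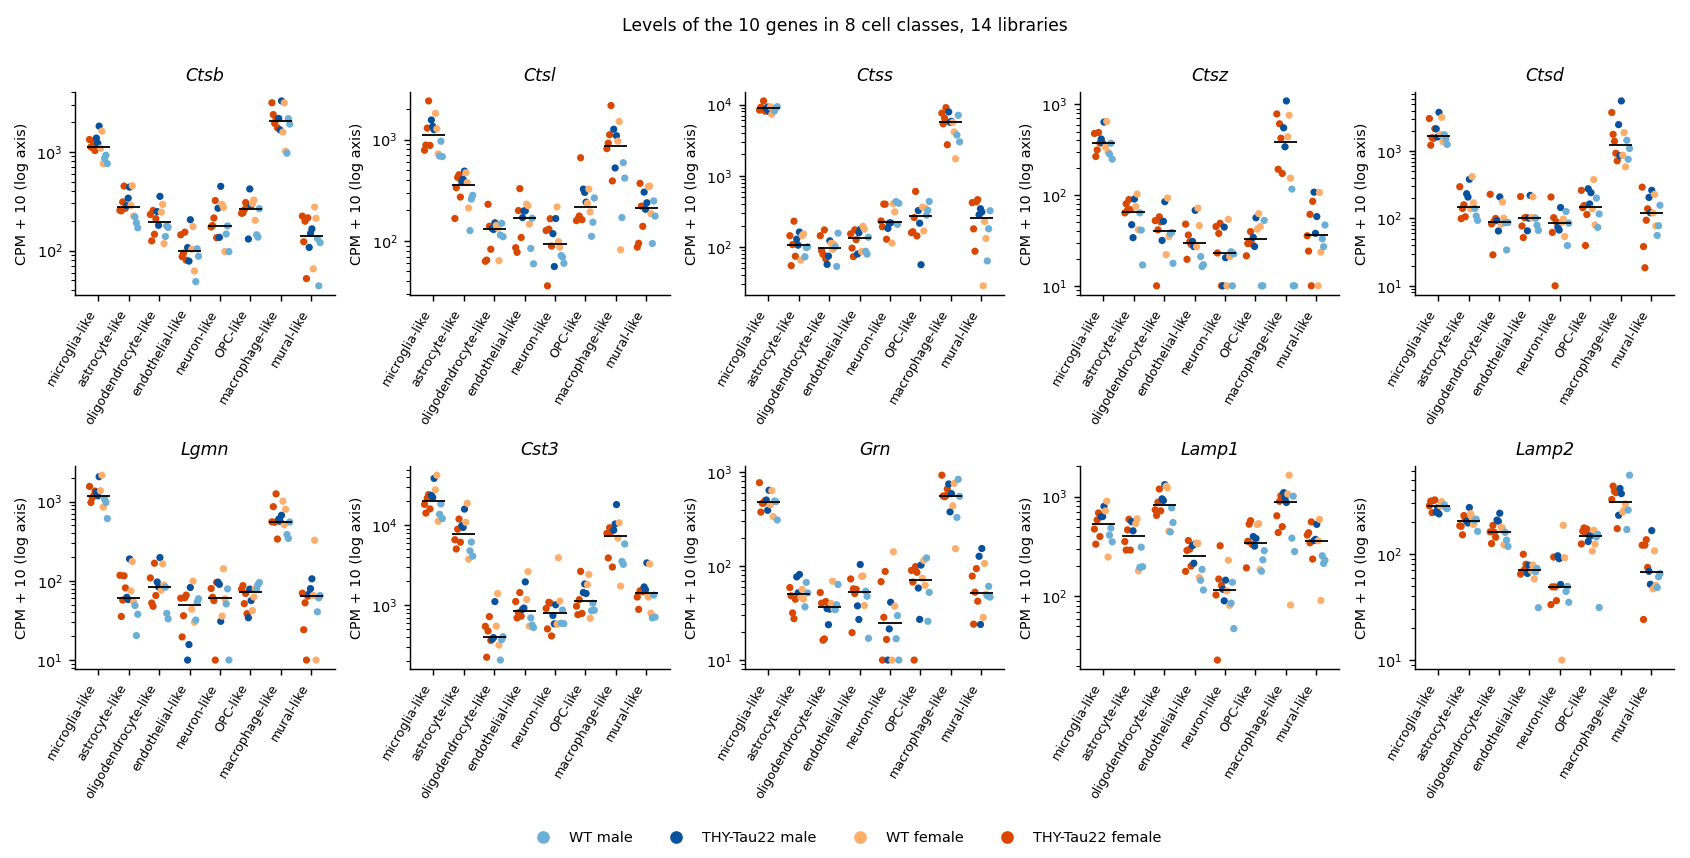
CPM plus 10 (log axis) of each gene in 8 cell classes, 1 point per library and coloured by group, with a bar at the median of the 14 libraries. Ctss spans 7271 to 11242 CPM in microglia-like cells and stays under 593 in the classes other than microglia-like and macrophage-like, while the medians of Lamp1 and Lamp2 differ far less between classes.

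Ctss encodes cathepsin S, a protease of antigen-presenting cells that stays active at neutral pH. In microglia-like cells it ranged from 7271 to 11242 CPM, with a median of 8819. Macrophage-like cells followed at a median of 5630 CPM, below microglia-like cells in 14 of 14 libraries. No other class had a median above 259.3 CPM, the value in OPC-like cells, and the step from macrophage-like to OPC-like cells was 4.38 ± 1.08 on the log2 scale (mean ± SD of the within-library difference, CPM plus 10). Microglia-like cells supplied 84.8% ± 3.83 of all Ctss UMIs of a library (SD, n = 14).

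Ctsd, Lgmn, Ctsz and Grn showed the same 2 classes at the top. Ctsd, the main aspartic protease of lysosomes, had medians of 1676 CPM in microglia-like and 1239 in macrophage-like cells, which did not differ beyond their spread (0.45 ± 0.69 log2, higher in microglia-like cells in 10 of 14 libraries). Lgmn stood at 1176 CPM in microglia-like and 548.6 in macrophage-like cells, higher in the former in 13 of 14 libraries. Grn, by contrast, was at 549.5 CPM in macrophage-like and 467.2 in microglia-like cells, within the spread (0.16 ± 0.53). Ctsz, a carboxypeptidase, was at 372.4 and 363.5 CPM, also within the spread. In the other 5 of the 6 classes that were tested between groups (microglia-, astrocyte-, oligodendrocyte-, endothelial-, neuron- and OPC-like), the medians of these 4 genes were at most 140.5 (Ctsd), 73.4 (Lgmn), 55.9 (Ctsz) and 61.0 CPM (Grn), and in most of their steps neighbouring classes did not differ beyond the spread.

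Ctsb and Ctsl, broadly acting cysteine proteases, reached further beyond the phagocytes. Ctsb was highest in macrophage-like cells, at a median of 2022 CPM, above the 1104 CPM of microglia-like cells in 14 of 14 libraries. Astrocyte-like cells held 266.6 CPM of Ctsb, and OPC-like cells 252.3, which did not differ beyond the spread. Ctsl had medians of 1099 CPM in microglia-like, 858.1 in macrophage-like and 346.0 in astrocyte-like cells. The first 2 of these did not differ beyond the spread (0.75 ± 0.93 log2), while macrophage-like cells exceeded astrocyte-like cells in 13 of 14 libraries. Microglia-like cells supplied 57.1% ± 4.53 of Ctsb UMIs and 60.4% ± 4.47 of Ctsl UMIs (SD, n = 14).

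Cst3 had 2 main sources. Its median was 20232 CPM in microglia-like cells, 7763 in astrocyte-like cells and 7420 in macrophage-like cells. Microglia-like cells exceeded astrocyte-like cells in 14 of 14 libraries, by 1.37 ± 0.17 on the log2 scale, and astrocyte-like and macrophage-like cells did not differ beyond the spread. Of all Cst3 UMIs, 67.1% ± 2.43 lay in microglia-like and 18.5% ± 2.47 in astrocyte-like cells. Oligodendrocyte-like cells were lowest, at a median of 387.2 CPM.

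The membrane glycoproteins were distributed more evenly. Lamp1 was at a median of 812.8 CPM in oligodendrocyte-like cells, above the 522.8 CPM of microglia-like cells in 14 of 14 libraries (0.66 ± 0.21 log2). Oligodendrocyte-like cells supplied 31.9% ± 5.66 of its UMIs and microglia-like cells 26.9% ± 5.05. Macrophage-like cells had the highest median (873.8 CPM), which did not differ beyond the spread from that of oligodendrocyte-like cells. Lamp2, needed for the fusion of autophagosomes with lysosomes, fell from 274.0 CPM in microglia-like to 195.0 in astrocyte-like, 150.8 in oligodendrocyte-like and 137.9 in OPC-like cells, then to 60.4 in endothelial-like and 39.3 in neuron-like cells. Macrophage-like cells, at 301.4 CPM, did not differ from microglia-like cells beyond the spread. Neuron-like cells had the lowest median of the 6 tested classes also for Lamp1 (105.5 CPM) and Ctsl (83.5 CPM).

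Droplets also carry free RNA, so low levels outside microglia were set beside 12 microglia markers (P2ry12, Cx3cr1, Siglech, Tmem119, C1qa, C1qb, C1qc, Csf1r, Fcrls, Olfml3, Selplg and Gpr34), none of which is among the 10 genes. In astrocyte-like cells the summed markers stood at 1.11% of their level in microglia-like cells (median of 14 libraries, 0.838% to 2.47%). Ctss stood at 1.07% (0.488% to 1.96%), below the marker share in 9 libraries and above it in 5. The 2 shares were as close in oligodendrocyte-like (1.11% for Ctss, 0.934% for the markers), endothelial-like (1.40% and 1.15%), OPC-like (3.06% and 3.09%) and neuron-like cells (2.63% and 2.44%). Ctss in these 5 classes was therefore at the level of the microglial marker RNA found there. Some of it lay in single cells, as 39 of the 62 Ctss UMIs (62.9%) of neuron-like cells in WT male replicate 1. Whether it came from free RNA, from doublets or from the named cells was not tested.

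**Figure D2:**
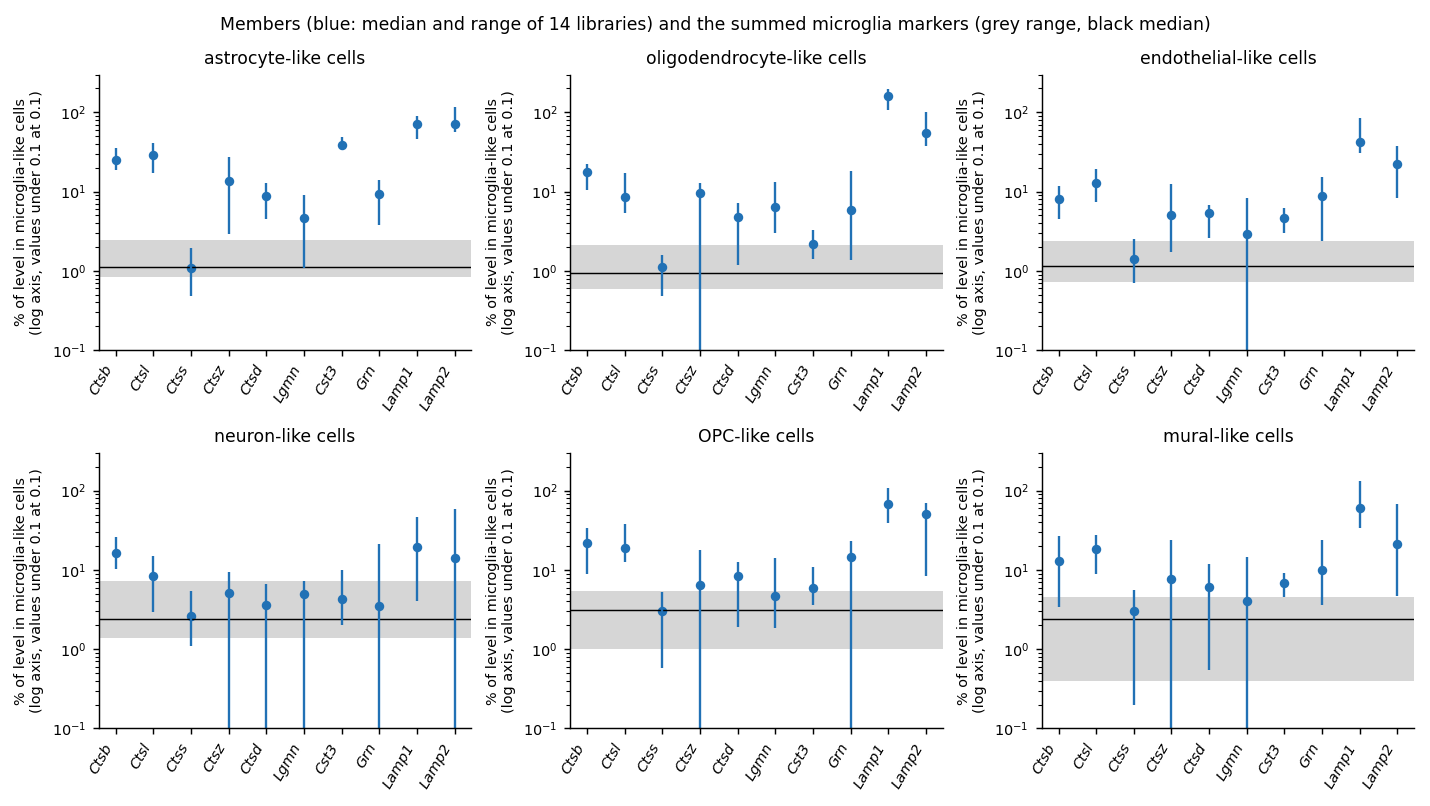
Level of each gene as a percent of its level in microglia-like cells of the same library (log axis), median and range of 14 libraries in blue, with the same percent for the 12 summed microglia markers as a grey range and black median. The median of Ctss lies in the grey range in every class shown, and Cst3 in astrocyte-like cells, at 38.7%, lies far above it.

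The other genes exceeded the marker share in some classes. In astrocyte-like cells Cst3 stood at 38.7% of its microglial level (33.2% to 49.5%), Ctsb at 25.0%, Ctsl at 28.6%, Lamp1 at 72.0% and Lamp2 at 70.3%, each above the marker share in 14 of 14 libraries. In oligodendrocyte-like cells Lamp1 stood at 159% and Ctsb at 17.5%, again above it in 14 of 14. Cst3 in oligodendrocyte-like cells was at only 2.16% of its microglial level (1.42% to 3.26%), with 0.934% for the markers. In neuron-like cells Ctsb (16.3%) and Lamp1 (19.5%) exceeded the markers in 14 of 14 libraries, but Lgmn did so in 9 and Ctsd in 10. The levels of Lgmn and Ctsd in neuron-like cells were thus not separable from the marker share at this depth. In macrophage-like cells the markers stood at 44.5% of their microglial level (26.6% to 74.4%). Ctss stood there at 60.8%, above the marker share in 10 of 14 libraries. Lgmn stood at 46.1%, above it in 8, and Cst3 at 30.8%, above it in 1. Ctsb, Grn, Lamp1 and Lamp2 exceeded it in 14 of 14, Ctsz and Ctsd in 12 and Ctsl in 11. The part of microglial RNA in the levels of macrophage-like cells was not tested. Leaving out the cells that the doublet caller marked lowered Ctss from 121.8 to 76.7 CPM in endothelial-like and from 259.3 to 89.7 CPM in OPC-like cells, the only 2 of 60 median levels that moved by more than the SD between libraries under any alternative tried for levels.

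Shares of cells with at least 1 UMI gave a similar picture. Ctss was detected in 95.9% of microglia-like cells (median of 14 libraries, 503 UMIs per cell) and in 4.47% of astrocyte-like cells (550 UMIs per cell), which serve as the class that should lack it. After thinning each cell to 300 UMIs, which left out 1.70% to 4.13% of cells in a group, the shares were 89.9% and 2.42%. Cst3 was detected in 99.2% of microglia-like, 92.2% of astrocyte-like and 18.1% of oligodendrocyte-like cells, and after thinning in 98.5%, 81.6% and 9.71%. Lamp1 was found in 24.6% of microglia-like and 38.7% of oligodendrocyte-like cells (13.5% and 19.9% after thinning). Barcodes under 200 genes, 17422 in the 14 libraries, had a median of 217.5 UMIs, and 42.4% of them held a UMI of Cst3 and 17.1% one of Ctss.

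Within microglia-like cells, 2 clusters were joined under 1 name. The larger was led by Plek, Ccl4, Cd83, Nfkbiz and Ccl3 and had all 12 markers raised, and the smaller had P2ry12, Maf and Gpr34 among its leading genes. Ctss was lower in the larger cluster in 14 of 14 libraries, at a median of 8634 against 9765 CPM, and Cst3 likewise, at 19730 against 22624 CPM. These clusters were defined from the same cells, though by genes other than the 10, so the difference is a description and carries no test. A description of another kind came from the 225 microglia-like cells with a UMI of Clec7a, Cst7 or Itgax, markers of the disease-associated microglial state. They had a median of 1956 CPM of Ctsb against 1076 in the other 6613 cells, higher in 13 of 14 libraries, and of 2460 against 1650 CPM of Ctsd, also higher in 13. The within-library difference was 0.71 ± 0.90 log2 for Ctsb and 0.46 ± 0.49 for Ctsd, neither beyond the spread. It was 0.24 ± 0.23 for Ctss, just beyond the spread and higher in 12 of 14 libraries. For Cst3 it was 0.07 ± 0.17 and for Lgmn 0.04 ± 0.47. In WT female replicate 3 the Ctsb level of the selected cells rested on 1 UMI, and the Ctsb difference there was -2.03 log2. In the other libraries the Ctsb difference was 0.14 to 1.50, so the SD of Ctsb includes 1 value far from the rest. The selected cells were deeper (624.75 against 486 UMIs) and numbered 6 to 30 per library. They made up 7.28% ± 3.09 of microglia-like cells in THY-Tau22 males, 1.76% ± 0.61 in WT males, 2.68% ± 1.44 in WT females (SD, n = 3 each) and 3.14% ± 0.83 in THY-Tau22 females (n = 5). The highest share, 10.5%, was that of THY-Tau22 male replicate 3. Its other microglia-like cells had a median of 1020.5 UMIs, against 385 to 716 in the other libraries. The part of depth in these shares was not tested.

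The genes most alike in pattern were sought by Pearson correlation of log2(CPM plus 10) over 84 class-by-library values (6 classes, 14 libraries), among 3618 genes with a mean of at least 50 CPM. The points of 1 library share depth and preparation, so r is a description. Ctss was most like Cx3cr1 (r = 0.96), Fyb (0.95) and Rgs2 (0.95). Lgmn and Ctsd were both most like Csf1r (0.92 and 0.89). Cst3 was most like Mertk (0.90), Sat1 (0.89) and Ctsl (0.87), the genes like Ctsb included Psap (0.85) and C1qa (0.84), and Grn and Ctsz were most like C1qc (0.85 and 0.84). Lamp1 was most like Cd81 (0.81) and Lamp2 most like Scamp2 (0.78).

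Between libraries, most of the genes varied widely within 1 class and did so together with the share of UMIs from mitochondrial mRNA, a relation examined after the data were seen. In microglia-like cells Cst3 lay at 13731, 18544 and 12152 CPM in the WT males and at 23719, 22316 and 38750 in the THY-Tau22 males. In WT females it lay at 27889, 42439 and 11216, and in THY-Tau22 females at 18279, 14234, 21919, 24218 and 16047. The highest and the lowest library of all were both WT females. The mitochondrial share of the same cells was 0.382% to 0.569% in WT males, 0.903% to 1.20% in THY-Tau22 males, 0.427% to 1.10% in WT females and 0.691% to 0.946% in THY-Tau22 females.

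**Figure D3:**
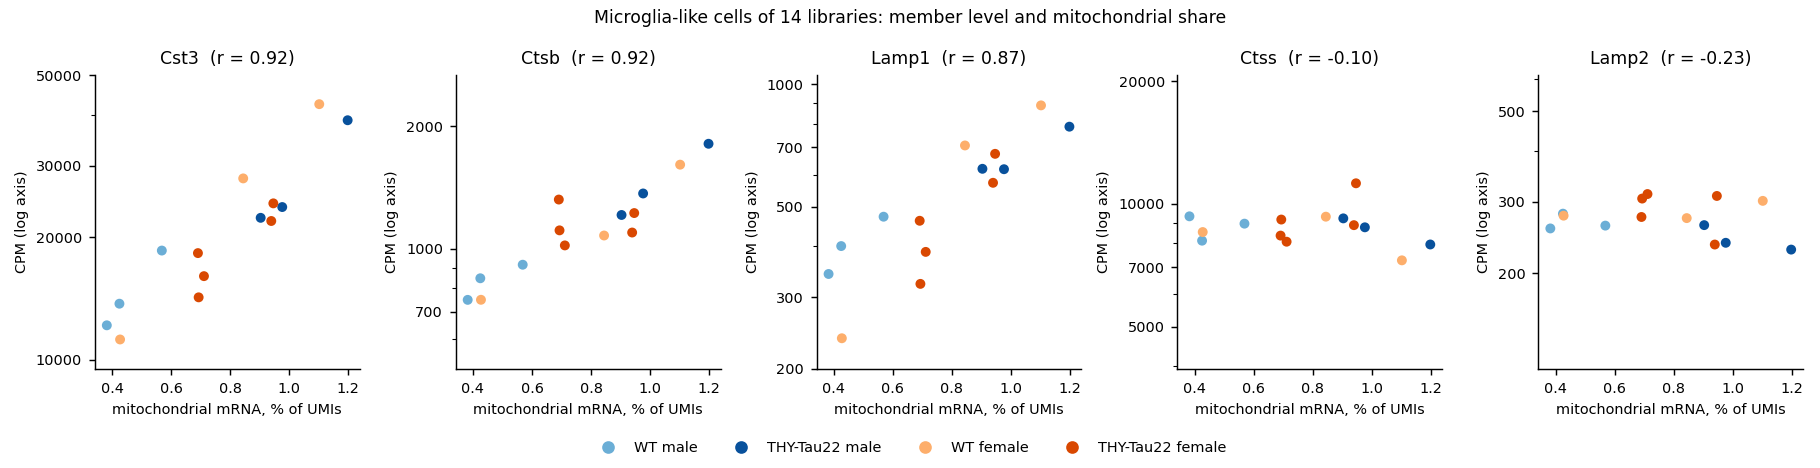
CPM (log axis) of 5 genes in microglia-like cells against the percent of UMIs from mitochondrial mRNA in the same cells, 1 point per library, coloured by group, with Pearson's r of log2(CPM plus 10). Cst3 and Ctsb rise with the share in both genotypes (r = 0.92 each), while Ctss and Lamp2 show no such slope (r = -0.10 and -0.23).

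Over the 14 libraries, log2 Cst3 correlated with this share at Pearson's r = 0.92 (permutation p = 1e-05, the smallest that 100000 permutations can give, adjusted p = 1e-04 over the 20 relations computed, 10 genes in 2 classes) and Spearman's rho = 0.89 (permutation p = 6e-05, adjusted p = 3e-04). Without the 2 libraries farthest from the median share r was 0.88. It was 0.96 within the 8 THY-Tau22 libraries, 0.99 within the 6 WT libraries, 0.97 within the 6 male and 0.93 within the 8 female libraries. Ctsb (r = 0.92, rho = 0.87) and Lamp1 (r = 0.87, rho = 0.82) moved likewise (permutation p = 2e-05 and 1e-04 for r, adjusted p = 1e-04 and 3.33e-04; 8e-05 and 6.7e-04 for rho, adjusted 3.2e-04 and 0.00191), with r of 0.87 and 0.85 without the 2 libraries. Both held within genotypes, at 0.74 and 0.91 in THY-Tau22 and 0.98 and 0.92 in WT libraries.

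Lgmn, Ctsz, Ctsl and Ctsd had r of 0.80, 0.78, 0.76 and 0.62 (adjusted permutation p = 0.00123, 0.00242, 0.00382 and 0.0294) and rho of 0.72, 0.77, 0.77 and 0.59 (adjusted permutation p = 0.00902, 0.00433, 0.00433 and 0.0457). Without the 2 libraries r was 0.66, 0.64, 0.78 and 0.38, so that the relation of Ctsd rests on them. Grn did not pass (r = 0.53 and rho = 0.48, adjusted permutation p = 0.064 and 0.104).

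Ctss and Lamp2 stood apart from the others in microglia-like cells. Ctss had r = -0.10 and rho = -0.23 (permutation p = 0.743 and 0.426, adjusted 0.743 and 0.448), and Lamp2 r = -0.23 and rho = -0.18 (permutation p = 0.423 and 0.546, adjusted 0.463 and 0.546). Ctss lay at 8127, 8948 and 9327 CPM in WT males, 8765, 9219 and 7954 in THY-Tau22 males, 9308, 7271 and 8533 in WT females and 8363, 9158, 8872, 11242 and 8080 in THY-Tau22 females. Its highest library exceeded its lowest 1.55-fold, against 3.78-fold for Cst3 and 3.73-fold for Lamp1.

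Astrocyte-like cells showed the relation again for Cst3 (r = 0.97, rho = 0.94; permutation p = 1e-05 and 2e-05, adjusted 1e-04 and 2e-04), Lamp1 (r = 0.93, rho = 0.91; adjusted permutation p = 1e-04 and 3e-04) and Ctsb (r = 0.90, rho = 0.91; 1.2e-04 and 2e-04), all still at 0.82 or above without the 2 libraries. Of the 5048 genes tested in microglia-like cells apart from mitochondrial ones, 1.27% had r of at least 0.9 with the share, and the median r was 0.12. Cst3 and Ctsb stood at the 99.3 percentile of these genes, Lamp1 at the 97.6 and Ctss at the 34.4. In astrocyte-like cells 3.22% of 3973 genes had r of at least 0.9, the median r was 0.29, and Cst3 and Lamp1 stood at the 99.9 and 98.5 percentiles.

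Malat1, a nuclear non-coding RNA, moved the opposite way. In microglia-like cells it lay at 43047 to 49890 CPM in WT males and 19585 to 31685 in THY-Tau22 males. Over the 14 libraries log2 Cst3 correlated with log2 Malat1 at r = -0.95 and rho = -0.93 (permutation p = 1e-05 and 2e-05, adjusted p = 1e-04 and 2e-04 over a further 20 relations, also computed after the data were seen). Ctsb had r = -0.90 and rho = -0.83 (adjusted permutation p = 1.33e-04 and 0.00134), Lamp1 -0.89 and -0.91 (1.33e-04 and 2e-04) and Lgmn -0.87 and -0.84 (1.33e-04 and 0.00123). Without the 2 libraries farthest from the median of Malat1, r was -0.92 for Cst3, -0.79 for Ctsb, -0.88 for Lamp1 and -0.72 for Lgmn. Within genotypes r lay at -0.96 for Cst3 in both. Ctss (r = 0.25, rho = 0.19; adjusted permutation p = 0.422 and 0.542) and Lamp2 (0.19 and 0.13; 0.504 and 0.646) again stood apart. In astrocyte-like cells Cst3 had r = -0.92 and rho = -0.94 (adjusted permutation p = 1e-04 and 2e-04), and r = -0.86 without the 2 libraries. Unlike the relation with mitochondrial share, that with Malat1 is not set beside all genes here, and Malat1 is itself part of the total to which CPM is scaled. The covariate fit given with the male values holds the mitochondrial share only. Beyond it, the part of mitochondrial share and Malat1 in the genes' levels was not tested.

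The question of the study's design was whether levels differ with the tau transgene and whether that depends on sex. In edgeR fits over all genes, a gene was called where its adjusted p was under 0.05 and its log2 fold change 0.5 or more in size. None of the 59 tests of the 10 genes in males was called, over all cells and the 6 classes (a gene could fail the filter on low counts in a class). The share called among all genes at these 7 levels was 0.0985%, and 0.533% in microglia-like cells. Of the 59 tests, 23 had an unadjusted p under 0.05, against 15.3% of all tests in males, and DESeq2 called 1 (Ctsb in microglia-like cells), beside 0.435% of all tests by that tool. The DESeq2 counts of the other contrasts are given below without such a share, so they are not a result about these genes alone. The tests share libraries, and the level of all cells holds the cells of the classes, so the 59 are not independent.

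**Figure D4:**
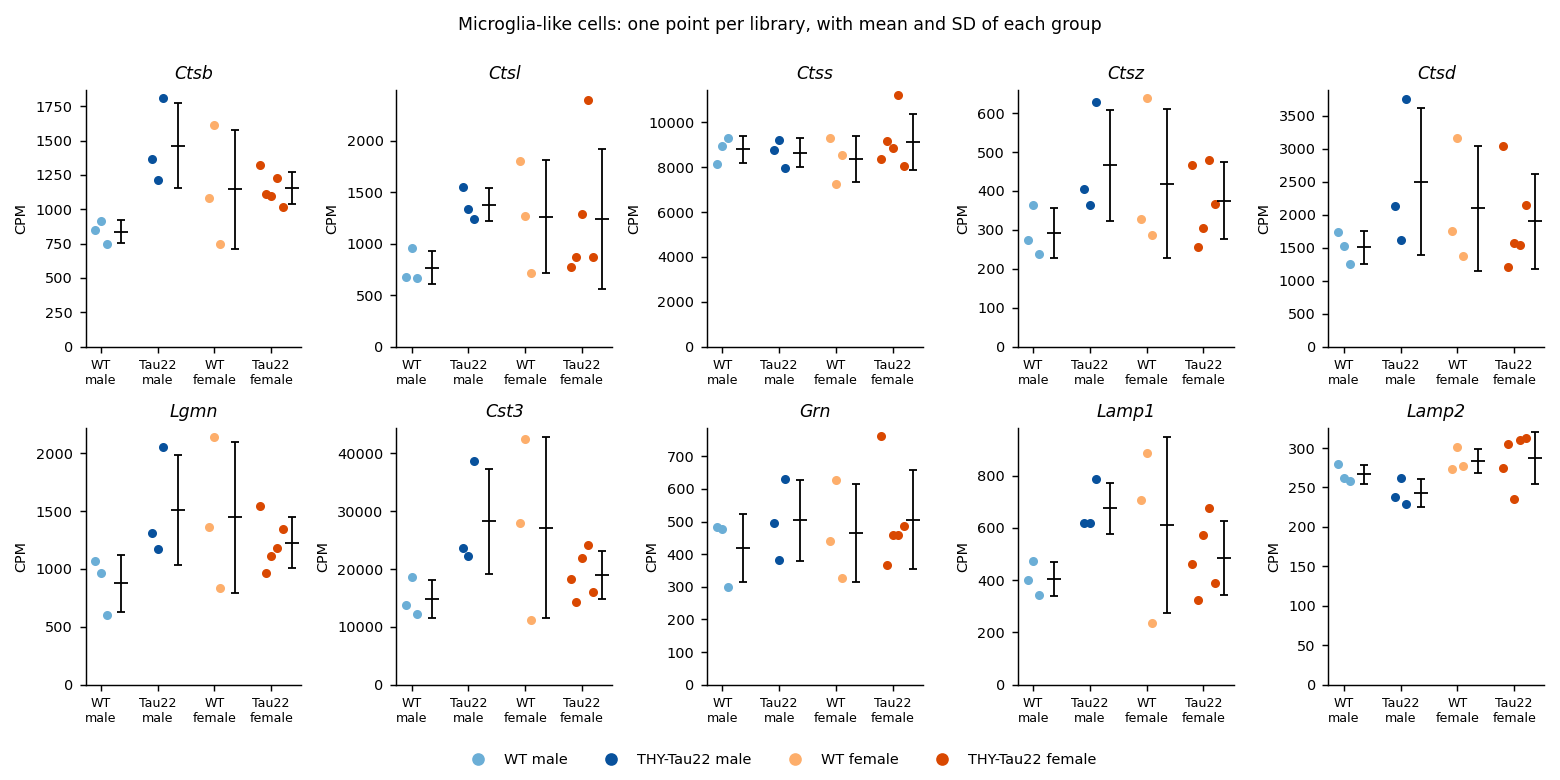
CPM in microglia-like cells by group, 1 point per library, with the mean and SD of each group beside the points. For Cst3, Ctsb, Ctsl, Ctsz, Lamp1 and Lgmn every THY-Tau22 male lies above every WT male, with Ctsz separated by 363.4 against 363.7 CPM only. For Cst3 the WT females hold both the highest and the lowest of the 14 values.

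In microglia-like cells of males, Ctsb lay at 846.8, 914.3 and 749.5 CPM in WT and at 1368, 1211 and 1812 in THY-Tau22 mice, with no overlap. Its log2 fold change was 0.69 ± 0.24 (SE, edgeR adjusted p = 0.148; 0.0476 by DESeq2 with 0.70). Lamp1 lay at 400.4, 472.8 and 342.0 CPM in WT and 618.5, 619.9 and 786.6 in THY-Tau22 males, again apart. The log2 fold change was 0.62 ± 0.30 for Lamp1 (edgeR adjusted p = 0.267) and 0.82 ± 0.33 for Cst3 (0.197). Ctsl ranged from 669.9 to 953.4 CPM in WT and from 1244 to 1552 in THY-Tau22 males, and Lgmn from 599.6 to 1066 and from 1173 to 2051. Ctsd, at 1246 to 1740 and 1613 to 3755 CPM, overlapped. The log2 fold changes of Ctsl, Lgmn, Ctsd and Ctsz were 0.74, 0.66, 0.61 and 0.56, and edgeR called none of them (adjusted p = 0.225, 0.225, 0.323 and 0.296). Those of Lgmn, Ctsd and Ctsz were 0.41, 0.23 and 0.32 without THY-Tau22 male replicate 3, and that of Cst3 was 0.56. Ctss, Grn and Lamp2 had -0.13 ± 0.24, 0.14 ± 0.27 and -0.25 ± 0.23. For 6 of the 10 genes every THY-Tau22 male exceeded every WT male (Cst3, Ctsb, Ctsl, Ctsz, Lamp1 and Lgmn), an arrangement that 16.1% of all 5062 genes tested showed. It was found for 4 of 9 genes tested in oligodendrocyte-like cells (beside 21.5% of all genes there), 3 of 8 in endothelial-like (18.4%), 2 of 6 in OPC-like (12.6%) and 0 of 6 in neuron-like cells (8.44%). Over all cells it was found for 8 of 10 (22.4%).

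The mitochondrial share of these males did not overlap between genotypes either. With the library's share as a covariate, an alternative chosen after seeing the data, the male log2 fold change in microglia-like cells was -0.32 ± 0.23 for Cst3, 0.22 ± 0.25 for Ctsb, -0.38 ± 0.28 for Lamp1 and 0.11 ± 0.24 for Ctss. Then edgeR called none of the 61 tests that passed the filter, in any contrast. The lowest edgeR adjusted p among them was 0.856, for Cst3 in neuron-like cells of males. The share of all genes called in this fit is not given here, so the absence of calls is not a result about these genes alone. Ctsl, Lgmn, Ctsd and Ctsz stood at 0.15, 0.0026, 0.03 and -0.047 in that fit. Genotype and mitochondrial share cannot be told apart in the males. The summed microglia markers of microglia-like cells were at 23747 ± 4116 CPM in THY-Tau22 and 19298 ± 3506 in WT males (SD, n = 3 each). The summed macrophage markers, 8 genes of which up to 6 were at 0 in a library, were at 42.7 ± 21.8 and 30.3 ± 8.20 CPM. The part of these differences in the results was not tested.

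In females none of 59 tests was called (0.00318% of all tests), with 1 at an unadjusted p under 0.05, against 2.50% of all tests, and 0 calls by DESeq2. At no level did every THY-Tau22 female lie above every WT female for any of the 10 genes, beside 0.679% of all genes over all cells, 1.36% in microglia-like, 1.15% in astrocyte-like, 1.08% in oligodendrocyte-like, 1.06% in endothelial-like, 2.64% in neuron-like and 1.38% in OPC-like cells. Cst3 in microglia-like cells had a log2 fold change of -0.47 ± 0.29 (edgeR adjusted p = 1), and the groups overlapped, since WT females held both the highest and the lowest value. It was -0.052 without WT female replicate 2 and -0.82 without WT female replicate 3. Ctsb lay at 1079, 1610 and 749.8 CPM in WT females and 1322, 1110, 1097, 1225 and 1020 in THY-Tau22 females, inside the WT range (log2 fold change 0.05 ± 0.22). The log2 fold changes of Lamp1 (-0.27 ± 0.26), Ctsd (-0.09 ± 0.28) and Ctss (0.13 ± 0.22) were within about 1 SE of 0. The 1 test with a small unadjusted p was Cst3 in neuron-like cells, at -1.30 ± 0.38 (edgeR adjusted p = 0.999). It lay at 568.4, 3919 and 1114 CPM in WT females and at 898.6, 494.6, 1076, 1050 and 401.1 in THY-Tau22 females. The value of 3919 CPM rested on 89 UMIs, of which 58 (65.2%) came from 1 cell, and without that library, WT female replicate 2, the log2 fold change was -0.45.

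**Figure D5:**
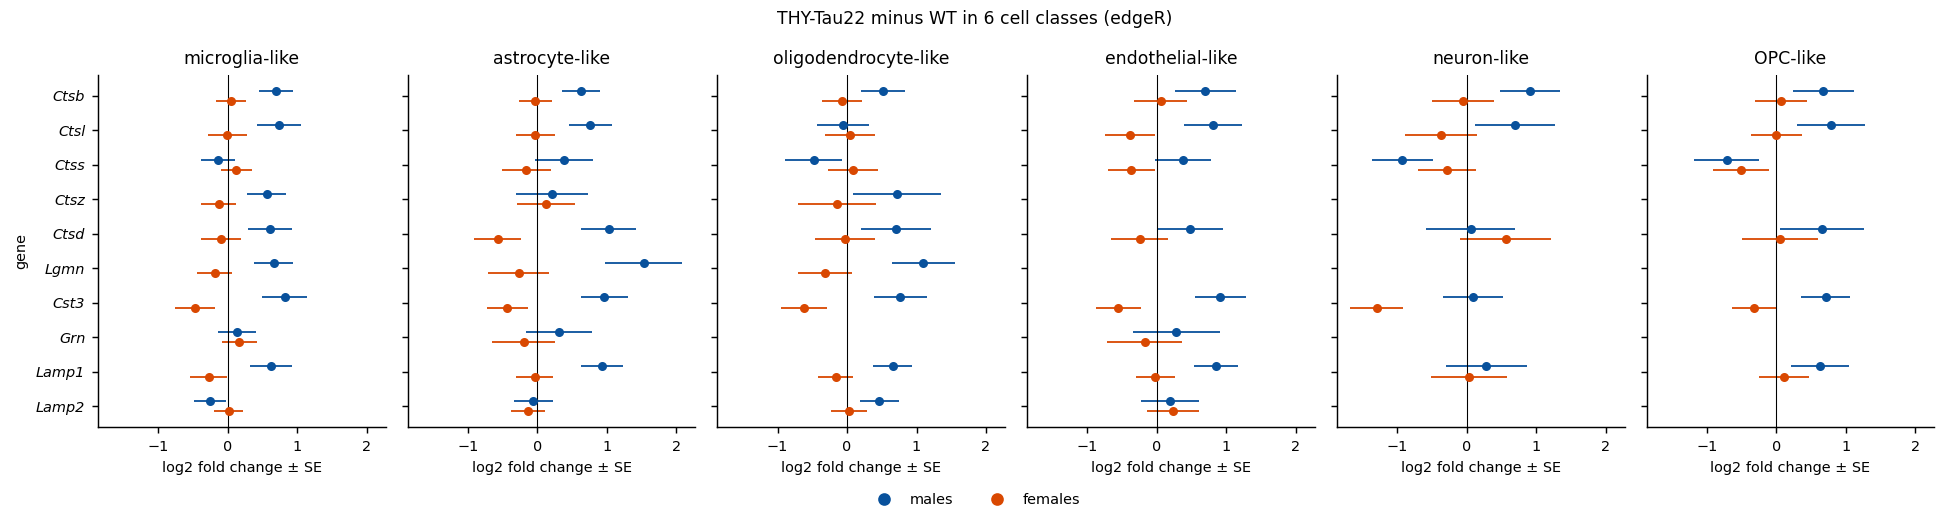
Log2 fold change (THY-Tau22 minus WT, ± SE, edgeR) of each gene tested in 6 cell classes, males in blue and females in orange. Male values lie mostly right of 0 (51 of 59 tests with the level of all cells included) and female values around 0 (20 of 59 above it), and none was called.

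Astrocyte-like cells of males showed larger fold changes for some genes, also uncalled. Cst3 lay at 4776, 6155 and 4097 CPM in WT and 9883, 9412 and 15955 in THY-Tau22 males (log2 fold change 0.96 ± 0.34, edgeR adjusted p = 0.166). Lamp1 lay at 185.1, 300.7 and 188.1 against 549.4, 443.6 and 545.9 CPM (0.93 ± 0.30, adjusted p = 0.153), and Ctsb had 0.63 ± 0.28 (0.242). For 7 of 10 genes every THY-Tau22 male was above every WT male, beside 22.1% of all 3987 genes tested. The mitochondrial share was 1.24% to 1.66% in these THY-Tau22 males and 0.565% to 0.794% in the WT males. With the covariate Cst3 was at -0.32 ± 0.24 and Lamp1 at 0.10 ± 0.32. Without WT female replicate 3, edgeR called both (adjusted p = 0.0389 and 0.0421), the only 2 male calls of the 10 genes then, beside 1.61% of all tests. Without both libraries whose titles carry MB22, of which that one is 1, it again called both, beside 1.55% of all tests. In oligodendrocyte-like cells, where Lamp1 is highest among the tested classes, it had a male value of 0.66 ± 0.28 (adjusted p = 0.214), at 431.9, 759.0 and 538.8 CPM in WT and 938.3, 901.7 and 1306 in THY-Tau22 males.

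Averaged over both sexes none of 59 tests was called by edgeR (0.00636% of all tests), with 4 at an unadjusted p under 0.05, against 5.02% of all tests, and 0 calls by DESeq2. Males and females averaged over genotypes gave none either (0.089% of all tests), with 1 at an unadjusted p under 0.05, against 2.08% of all tests, and 0 calls by DESeq2.

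For the sex by genotype interaction, the male minus the female log2 fold change, edgeR called none of 59 tests (0.0445% of all tests), with 17 at an unadjusted p under 0.05 against 13.6% of all tests, and DESeq2 called 0. The Cst3 interaction was 1.29 ± 0.43 in microglia-like (edgeR adjusted p = 0.203) and 1.39 ± 0.45 in astrocyte-like cells (0.136), and that of Ctsd in astrocyte-like cells 1.60 ± 0.52 (0.136). Ctsd lay there at 131.3, 98.5 and 83.6 CPM in WT males, 222.7, 197.8 and 371.4 in THY-Tau22 males, 129.0, 407.8 and 160.5 in WT females and 286.1, 89.4, 130.6, 149.6 and 96.0 in THY-Tau22 females. Only the males were apart by genotype. The count of 0 turned on 1 library. Without WT female replicate 3, which had the lowest Cst3 in microglia-like and astrocyte-like cells (11216 and 3755 CPM), 12 of 61 tests of the 10 genes were called, beside 8.94% of all tests, among them Cst3 in microglia-like (1.65, adjusted p = 0.00543) and astrocyte-like cells (1.73, adjusted p = 0.00131). The other calls were Cst3 in endothelial-like and oligodendrocyte-like cells, Lamp1 in microglia-like, astrocyte-like and oligodendrocyte-like cells, Lgmn in microglia-like and astrocyte-like cells, Ctsd in astrocyte-like cells, and Cst3 and Lamp1 over all cells. Leaving out both MB22 libraries gave 10 calls, beside 5.98% of all tests, and keeping them with the tag as a covariate, an alternative chosen after seeing the data, gave 2 of 61 (Cst3 and Ctsd in astrocyte-like cells, adjusted p = 0.045 and 0.0456), beside 0.872% of all tests. The mitochondrial share of WT female replicate 3 over all cells was 0.540%, the lowest of the females, and with the share as a covariate over all 14 libraries the Cst3 interaction in microglia-like cells was -0.19 ± 0.30 (adjusted p = 0.998).

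Other genes of the lysosome were taken from a list of 91, of which 87 had rows in the tables. Their highest median among the 6 tested classes was in microglia-like cells for 38 of the 87, in neuron-like cells for 17, oligodendrocyte-like for 11, OPC-like for 9, astrocyte-like for 6 and endothelial-like for 2, while 4 (Ctse, Ctsw, Cst6 and Atp6v0d2) had a median of 0 in all 6. These counts take no account of the spread. Some medians were low and close, as 20.7 CPM in OPC-like and 19.6 in microglia-like cells for 1 gene. In microglia-like cells Laptm5, a membrane protein of blood cells and microglia, was at 1819 ± 167 CPM (SD, n = 14), Psap, the precursor of the saposins that activate lipid breakdown, at 879 ± 183, and the cholesterol carrier Npc2 at 843 ± 240. Cd63 was higher in astrocyte-like (median 515.7 CPM) than in microglia-like cells (300.3), and 11 of the 18 genes listed for the vacuolar proton pump, which acidifies the lysosome, were highest in neuron-like cells. One of these, Atp6v1e1, had medians close to each other in neuron-like (329.0 CPM), oligodendrocyte-like (315.5) and astrocyte-like cells (309.2).

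None of these genes was called by edgeR in either direction, in any contrast at any level. In microglia-like cells of males, 44 of 58 tested had a positive log2 fold change, with a median of 0.34 against -0.01 for all 5062 genes tested and 0.62 for the 10 genes. In females the medians were 0.03, 0.00 and -0.05. In microglia-like cells, 16 of 58 had an unadjusted p under 0.05 in males and 0 of 58 in females, against 17.3% and 2.77% of all genes. The smallest p in microglia-like cells of males belonged to the pump subunit Atp6v1f (1.25 ± 0.38, edgeR adjusted p = 0.106), followed by Cstb, a cytosolic cathepsin inhibitor (1.50 ± 0.48, 0.122), both singled out after their values were seen. Laptm5 had -0.16 ± 0.22 (0.744).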

How the data were processed

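Cortical cells of 1 hemisphere per mouse were sequenced by Drop-seq (NextSeq 500), and per the labels and the methods of the study the authors ran the standard Drop-seq pipeline on mm10. The pipeline version is not given in the sources used here, and how reads shared by near-identical genes were counted is likewise not given. The deposited values were raw UMI counts per gene and barcode, 3000 barcodes per table, with no normalization. Groups came from genotype and sex in the labels. Replicate numbers follow accession order and pair no samples. One TAO number stands in 2 titles, that of THY-Tau22 female replicate 1 and that of WT male replicate 1, whose tables shared 5 barcodes, and both were kept.

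Barcodes with 200 to 7000 detected genes were kept, 1121 to 2526 per library. They were clustered in scanpy 1.11.5 (2500 variable genes without the 10 genes and the other lysosomal genes, 19 principal components, 20 neighbours, Leiden resolution 0.5) and named from marker lists. Scrublet marked 1473 cells (5.16%) as doublets, which were kept. Class names were rebuilt here, and values may differ from those of the study for that reason. Xist and 4 Y-linked genes matched the labelled sex in all libraries.

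UMIs were summed per library and class and tested on all genes with the quasi-likelihood test of edgeR 4.0.16 (TMM, filterByExpr, 1 mean per group, 14 libraries), with Benjamini-Hochberg adjustment. The authors had used a Poisson regression over cells, and edgeR for the interaction. Levels in log2 form use CPM plus 10, and ± is the SD over libraries for levels and the SE for fold changes. A step between classes was called beyond the spread where its mean within-library log2 difference exceeded its SD. The sums hold few UMIs in small classes, which limits their precision, as in neuron-like cells (26 to 199 per library).

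The 10 genes, the lists, the markers and the tests were chosen with earlier results of these data known. Named are the 10 genes, the 3 genes most like each, and other lysosomal genes that were called or had one of the 3 highest levels of their group in microglia-like cells. A gene that this rule also names is not reported here. Alternatives were DESeq2 1.42.0, other library sizes, filters on genes and cells, doublets left out, resolution 1.0, the shared library kept, the MB22 libraries left out and each library left out in turn. The covariates (mitochondrial share, MB22 tag) and the correlations with mitochondrial share and Malat1 were added after seeing the data. The test script was tested on simulated data.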

Additional observations from a re-analysis of the deposited data

Results flagged for a closer look

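Among 70 groups of 5 libraries tested for a single distant library (10 genes over all cells and 6 classes, THY-Tau22 females), 4 had one, where chance gives about 1 in 20. In OPC-like cells THY-Tau22 female replicate 4 stood above the other 4 libraries for Ctsl, at 652.2 CPM against 148.6 to 166.1. It also did so for Ctss, at 592.9 CPM against 132.9 to 249.1, and for Cst3, at 2638 CPM against 750.0 to 1162. Of its 22 Ctsl UMIs in these cells, 10 (45.5%) came from 1 cell. In microglia-like cells the same library had the highest Ctsl (2398 CPM) and Ctss (11242 CPM) of all 14. In neuron-like cells Lamp2 lay at 83.5 CPM in THY-Tau22 female replicate 3 and at 23.3 to 39.0 in the others. The causes were not tested.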

How the results depend on the processing

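No paired analysis was possible because replicates were numbered by accession and the numbers name no shared litter, batch or day. The titles do carry the tag MB21 or MB22, with 1 female of either genotype and no male under MB22, and what the tag stands for is not given in the sources used here. The counts of the 10 genes' tests called stayed at 0 in females, over both sexes and between sexes under every alternative run. The share of all tests called is not given for each alternative, so a count of 0 is not a result about these genes alone. In males the count was 1 by DESeq2 (Ctsb in microglia-like cells) and 2 without the MB22 libraries (Cst3 and Lamp1 in astrocyte-like cells), and it ranged from 0 to 2 with each library left out in turn. The interaction count was 10 without the MB22 libraries and 2 with the MB22 tag as a covariate (Cst3 and Ctsd in astrocyte-like cells), and ranged from 0 to 12 with each library left out, where the only single library whose omission gave calls was WT female replicate 3. Leaving out libraries lowers the number of samples. It also changes the SE of the other groups, since all groups share 1 estimate of the spread. For Cst3 in astrocyte-like cells of males the SE was 0.34 in the main fit and 0.26 without WT female replicate 3. The cause of the added calls was not tested.

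With the mitochondrial share as a covariate the male log2 fold change in microglia-like cells turned to 0.11 for Ctss, -0.047 for Ctsz, -0.32 for Cst3, -0.24 for Grn and -0.38 for Lamp1. It turned to -0.32 for Cst3 in astrocyte-like and -0.20 for Lamp1 in oligodendrocyte-like cells, and the interaction of Cst3 in microglia-like cells to -0.19. With at least 500 genes per cell, Ctss in microglia-like cells of males was at 0.027. With single libraries left out, Grn in microglia-like cells of males ranged from -0.0335 to 0.316. It was -0.0335 without WT male replicate 4 and -0.031 without THY-Tau22 male replicate 3. None of these values was called. In microglia-like cells of males, Ctsd ranged from 0.23 to 0.86 with each library left out, Ctsz from 0.32 to 0.73, Lgmn from 0.41 to 0.86 and Ctsl from 0.62 to 0.91. Without TMM factors the median male log2 fold change of all genes moved from -0.01 to 0.12 in microglia-like and from 0.01 to 0.32 in astrocyte-like cells, so male values shift by that much with the scaling. The other 528 alternative values are of single fold changes, of median levels in microglia-like cells and of Ctss over the marker RNA. The fold changes among them kept their direction and their side of the threshold. The levels and ratios among them moved by less than the SD between libraries. A further 10 fold changes passed the threshold in the same direction.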
